A study of Mus musculus with 8 samples.

Results

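The subject here is the difference between 2 genotypes in the response of macrophages to the cytokine IL-6. It was computed for each gene as the log2 fold change of IL-6 against control in DNMT3A-HET macrophages (HET) minus the same change in wild-type macrophages (WT), and every gene that passed a filter on low counts was included. That filter kept 13721 of the 55376 genes in the deposited table. All 8 libraries of the series entered the comparison, 2 in each of 4 groups: WT control, WT IL-6, HET control and HET IL-6. Both genotypes came from male mice aged 13 weeks, 3 per genotype, whose bone marrow was differentiated with M-CSF at 50 ng/mL. The IL-6 groups received 10 ng/mL IL-6 from day 6 for 2 days, the control groups none, and RNA of all groups was taken on day 8. The labels name no Cre driver or allele beyond the word HET, and they leave unsaid how the mice map onto libraries or were pooled. Libraries are written below by group and number (WT control 1). The p-values therefore measure the spread between libraries, which may be partly technical.

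IL-6 binds its receptor and the shared chain gp130, which activates the transcription factor STAT3. In macrophages it is known for raising the IL-4 receptor and for shifting the cells towards repair functions. Dnmt3a encodes an enzyme that places new methyl groups on DNA, and its mutation in blood stem cells is a frequent feature of clonal haematopoiesis. A difference between the responses can come from genes that move in opposite directions, in a single genotype, or in the same direction by different amounts.

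Counts per library totalled 18926641 to 24881197, apart from HET IL-6 2 with 50137897. The gene named in the genotype was read first. Dnmt3a (chromosome 12, 3806007 to 3914443, mm10) stood at 275 and 244 CPM in untreated WT libraries, 174 and 183 after IL-6, 166 and 248 in untreated HET libraries and 140.1 and 213 after IL-6. Libraries labelled HET 1 were lower than those labelled WT under both treatments, whereas those labelled HET 2 lay within or above the WT range. The deleted or altered part of the gene is not given in the sources used here, so a level counted over all exons need not reflect the allele. Of 10 macrophage markers all were detected, with a summed level of 12100 to 14300 CPM (counts scaled to a common library size) over the 8 libraries. Libraries of a group differed by a median of 0.183 (log2) and 0.161 in the WT control and IL-6 groups, and 0.106 and 0.0897 in those of HET.

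With an edgeR adjusted p under 0.05, 1114 of 13721 genes (8.12%) differed in their response. The response was higher in HET for 620 genes (4.52%) and lower for 494 (3.6%). These shares are the background for the called members of each gene list below. The difference was at least 2-fold in 170 of the higher and 111 of the lower genes. Without adjustment 3042 genes had p under 0.05, and the median difference over all tested genes was 0.017 (log2). The split between higher and lower calls turned under an offset for GC content and exon length, which gave 760 higher and 958 lower genes. Called higher genes had a median GC content of 53.7%, called lower genes 48.4% and all tested genes 49.1%. None of the 1114 genes reversed the sign of its difference under an alternative in which it was tested. The number of calls moved more: it was 304 without HET control 1, 419 without HET IL-6 1, 472 without HET IL-6 2, 623 without WT IL-6 1, 687 without HET control 2, 740 without WT control 1, 1127 without WT IL-6 2 and 2123 without WT control 2.

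Each gene was then placed by its 2 responses. In WT, IL-6 raised 1086 genes (7.91%) and lowered 1429 (10.4%), and in HET it raised 1217 (8.87%) and lowered 1291 (9.41%). Rises and falls counted in the gene lists below are to be read beside these shares. Opposite responses, called in both genotypes and in the difference, were found for 112 genes (0.816%), of which 76 fell in WT and rose in HET and 36 rose in WT and fell in HET. A response in WT only, meaning called in the difference and in WT and not in HET, was found for 414 genes (3.02%), with 128 rises and 286 falls. A response in HET only was found for 417 genes (3.04%), with 166 rises and 251 falls. In 97 genes (0.707%) the direction was shared and the size differed, and in 74 further genes the difference was called and neither response was. A response was termed equal when it was called in both genotypes with 1 sign and the 95% interval of the difference lay within 1.5-fold on either side, which held for 571 genes (4.16%), 286 of them rises. For 2290 genes with a called response the data did not resolve which pattern applied. The number of opposite genes was 38 without HET control 1, 44 without HET IL-6 1, 62 without HET IL-6 2, 66 without WT IL-6 1, 71 without WT control 1 and 259 without WT control 2. WT-only genes numbered 152 without HET control 1, 189 without HET IL-6 2, 198 without HET IL-6 1, 199 without WT IL-6 1, 211 without WT control 1 and 867 without WT control 2. HET-only genes numbered 78 without HET control 1, 129 without HET IL-6 1, 168 without HET IL-6 2, 233 without HET control 2 and 639 without WT control 2. Genes of shared direction numbered 25 to 56 without any of HET control 1 or 2, HET IL-6 1 or 2 or WT IL-6 1, and 161 without WT control 2. Equal genes numbered 264 to 328 without any 1 HET library.

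**Figure D1:**
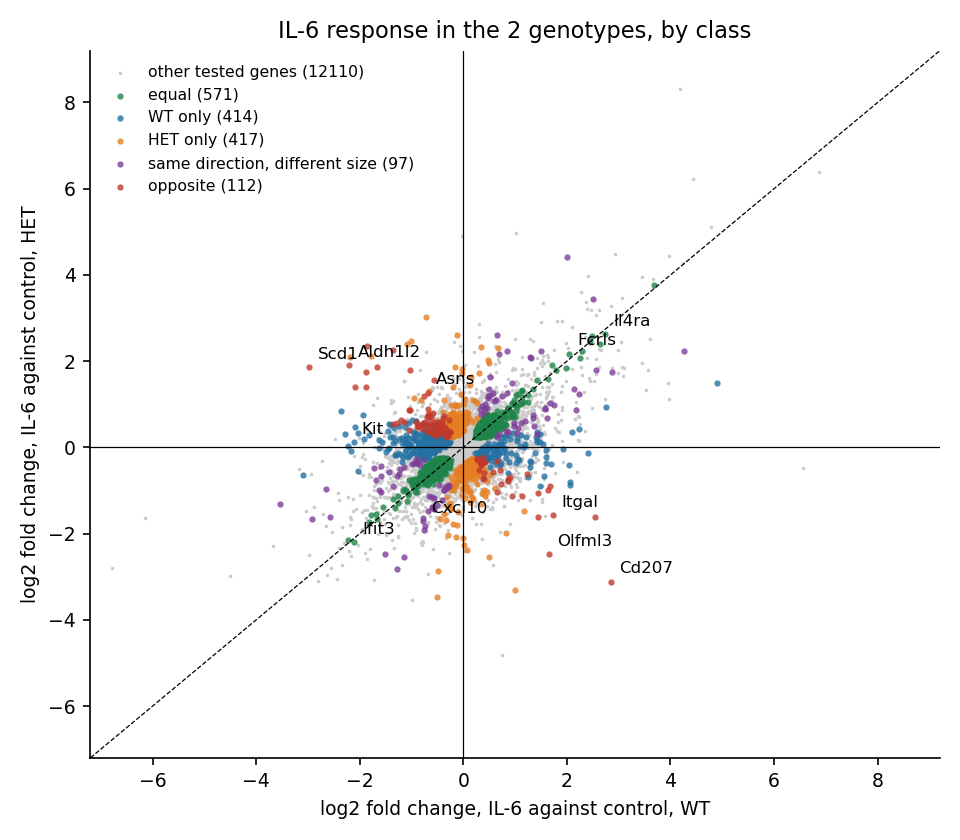
Each point is 1 tested gene, with the log2 fold change of IL-6 against control in WT on the x axis and in HET on the y axis, coloured by class. The 112 opposite genes fill the upper left and lower right quadrants, and the 571 equal genes follow the dashed line of identity.

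The names of the single-genotype classes rest on a threshold. In 211 of the 414 WT-only genes the HET libraries were also apart, in the other direction, and in 186 of the 417 HET-only genes the same was seen in the WT libraries. The libraries of both genotypes were apart in the same direction in 46 WT-only and 27 HET-only genes. Membership requires a called difference, which favours opposite directions. Over all tested genes, libraries were apart in both genotypes with opposite signs in 11.0% and with the same sign in 25.0%. In all 112 opposite genes no IL-6 library overlapped a control library within either genotype. The required call in both genotypes favours such a separation, here and for the single opposite genes described below. In 100 of these 112 the genotype with the higher mean level changed between control and IL-6, against 39.9% of all tested genes. Choosing genes by opposite responses favours such a change of order. The median size of the difference was 1.12 (log2) in opposite genes, 0.69 in WT-only genes, 0.63 in HET-only genes and 0.10 in equal genes.

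The genes that fell in WT and rose in HET included enzymes that make amino acids and carriers that import them. Many are known targets of ATF4, a transcription factor that cells switch on when amino acids run short or the endoplasmic reticulum is stressed. Of 17 tested members of the ATF4 list, 12 had a higher response in HET and none a lower one, with a median difference of 1.08 (log2) against 0.017 over all genes. In WT the list's median response was -0.36 with 8 called falls, and in HET it was 0.79 with 13 called rises. Asns (chromosome 6, 7675169 to 7693254), which makes asparagine, stood at 104 and 88.4 CPM in untreated WT libraries, 57.1 and 62.7 after IL-6, 45.3 and 58.4 in untreated HET libraries and 131 and 119.9 after IL-6. The WT libraries were higher in control and the HET libraries higher in IL-6, with no overlap between treatments in either genotype. Its response was -0.68 ± 0.12 (log2 ± SE) in WT and 1.27 ± 0.12 in HET, a difference of 1.95 ± 0.16 (edgeR adjusted p = 7.02e-05). Trib3, a pseudokinase induced by ATF4, had 29 and 19.4 CPM in untreated WT libraries, 10.6 and 13.4 after IL-6, 12.8 and 17.6 in untreated HET libraries and 56.2 and 50.0 after IL-6, with a difference of 2.82 ± 0.28 (edgeR adjusted p = 0.000344). Atf5 (chromosome 7, 44812256 to 44816658), a related transcription factor, responded in HET only. It measured 21.6 and 21.3 CPM in untreated WT libraries, 18.6 and 24 after IL-6, 12.3 and 11.2 in untreated HET libraries and 43.6 and 40.0 after IL-6, so that HET control lay below and HET IL-6 above both WT groups. Gdf15, a secreted stress cytokine, responded in WT only: it fell by 1.63 ± 0.14 in WT and its change in HET was 0.16 ± 0.13 (edgeR adjusted p of the difference 0.000155). For the ATF4 integrated stress response list, the number called higher was 7 without HET IL-6 1 or HET control 1.

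Promoter windows are shown for ATF4-list members whose 250 bases before the gene start hold the 8-base motif TGATGNAA, the core of the C/EBP-ATF response element. Sequences are from RefSeq (GRCm38.p6), written 5′ to 3′ on the gene's strand, with the match on either strand in capitals. Of 16 tested members with an entry, 5 held it (31.2%), against 2.59% of the 9988 tested genes with an entry and 3.91% of all 27025. A match is a description of the letters and not evidence of binding. Windows are counted from the RefSeq start, which can differ from the gene positions of the deposited table given elsewhere: the Asns, Atf3, Nupr1 and Vldlr windows lie inside the span of the gene in that table. The windows lie at chr6:7693210-7693252 (minus strand, Asns), chr1:191183416-191183463 (minus strand, Atf3), chr7:126625553-126625600 (minus strand, Nupr1), chr2:119351029-119351076 (plus strand, Chac1) and chr19:27216800-27216847 (plus strand, Vldlr).
Asns: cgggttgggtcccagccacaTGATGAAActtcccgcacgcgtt
Atf3: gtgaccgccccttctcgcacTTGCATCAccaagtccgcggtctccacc
Nupr1: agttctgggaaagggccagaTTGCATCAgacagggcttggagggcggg
Chac1: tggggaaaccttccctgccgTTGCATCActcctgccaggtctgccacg
Vldlr: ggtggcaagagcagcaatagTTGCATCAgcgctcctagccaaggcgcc
Among these 5 genes Asns was opposite. Vldlr, a receptor for triglyceride-rich lipoproteins that is also on the lipid uptake list, responded in HET only (difference 1.99 ± 0.54, edgeR adjusted p = 0.0391). Its counts were low: 1.59 and 1.19 CPM in untreated WT libraries and 0.579 and 1.23 after IL-6. In HET it measured 0.79 and 0.46 CPM untreated and 1.66 and 1.48 after IL-6. The call for Vldlr was lost without WT control 1, WT IL-6 1, HET control 1, HET control 2, HET IL-6 1 or HET IL-6 2, and also under DESeq2. Nupr1, a stress-induced chromatin protein, rose by 1.08 ± 0.16 in HET (difference 0.84 ± 0.22, edgeR adjusted p = 0.0394), and Atf3 fell by 0.88 ± 0.11 in WT (difference 0.60 ± 0.15, edgeR adjusted p = 0.0295). Chac1, which degrades glutathione, missed the threshold with a difference of 1.30 ± 0.36 (edgeR adjusted p = 0.0506). Atf3, Nupr1 and Chac1 are named because of their promoters, after their values were seen. The call for Nupr1 was lost without WT control 1, WT IL-6 1, HET control 1, HET IL-6 1 or HET IL-6 2, and also with GC and length offsets. The call for Atf3 was lost without WT control 1, WT IL-6 1, HET control 1, HET control 2, HET IL-6 1 or HET IL-6 2.

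Serine synthesis and mitochondrial folate enzymes supply carbon units for nucleotides. Of 14 tested members 7 were called higher and none lower, 4 of them opposite. Aldh1l2 (chromosome 10, 83487450 to 83534140), a mitochondrial folate enzyme whose exons overlap another gene over 14.1% of their length and whose level is therefore uncertain, had 9 and 5.83 CPM in untreated WT libraries, 1.53 and 1.72 after IL-6, 1.79 and 2.72 in untreated HET libraries and 9.57 and 7.64 after IL-6. Its response was -2.20 ± 0.27 in WT and 1.91 ± 0.24 in HET, a difference of 4.11 ± 0.36 (edgeR adjusted p = 7.5e-05). Shmt2, the mitochondrial serine hydroxymethyltransferase, stood at 102 and 88.7 CPM in untreated WT libraries, 60.6 and 60.4 after IL-6, 78.8 and 87 in untreated HET libraries and 130.5 and 138 after IL-6, and neither genotype's treatments overlapped. Psph, the last enzyme of serine synthesis, differed by 1.40 ± 0.18 (edgeR adjusted p = 0.00042); 10.4% of its exons overlap another gene, so its level is uncertain too. Phgdh, the first enzyme of the pathway, differed by 3.28 ± 0.44 (edgeR adjusted p = 0.0106). The call for Phgdh was lost without WT IL-6 1 or HET control 1. Mthfd2, the next folate enzyme, rose by 0.68 ± 0.10 in HET (difference 0.92 ± 0.14, edgeR adjusted p = 0.00129). For the serine synthesis and folate one-carbon list, the number called higher was 4 without WT IL-6 1.

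Amino acid transporters were mixed. Of 15 tested, 6 were called higher and 2 lower, against 4.52% and 3.6% of all tested genes. Slc7a5 (chromosome 8, 121881150 to 121907694), the large neutral amino acid exchanger, stood at 115 and 94.4 CPM in untreated WT libraries, 59.9 and 71.2 after IL-6, 81.7 and 88.1 in untreated HET libraries and 146 and 142 after IL-6. Slc1a4, a neutral amino acid carrier, differed by 2.13 ± 0.22 (edgeR adjusted p = 0.000131), and Slc6a9, the glycine carrier, by 3.62 ± 0.52 (edgeR adjusted p = 0.00099). Slc6a9 was low, at 2.59 and 1.1 CPM in untreated WT libraries, 0.62 and 0.858 after IL-6, 0.787 and 0.837 in untreated HET libraries and 4.1 and 3.79 after IL-6, and 30.2% of its exons overlap another gene, so its level is uncertain. Slc7a8, another exchanger of the same family as Slc7a5, went the other way: it rose by 0.65 ± 0.09 in WT and fell by 0.31 ± 0.09 in HET (edgeR adjusted p of the difference 0.000579). For the amino acid transporters list, the number called lower was 1 without HET IL-6 1, HET IL-6 2 or HET control 1. The cytosolic tRNA synthetases, which load tRNAs with amino acids, had 8 of 20 called higher and none lower, 7 of them in HET only. Sars, the seryl enzyme, was opposite at 1.07 ± 0.17 (edgeR adjusted p = 0.00216), and Aars, the alanyl enzyme, rose by 0.60 ± 0.10 in HET with a difference of 0.81 ± 0.14 (edgeR adjusted p = 0.00417). Of the exons of Aars 15.1% overlap another gene, so its level is uncertain. For the cytosolic aminoacyl-tRNA synthetases list, the number called higher was 2 without HET control 1, 3 without HET IL-6 1 and 4 without HET IL-6 2. Of 18 tested chaperones of the endoplasmic reticulum, 9 rose in WT and 3 in HET, and 1 was called higher and 3 lower in the difference. Over all tested genes 7.91% rose in WT, 8.87% rose in HET, 4.52% were called higher and 3.6% lower. For the endoplasmic reticulum chaperones list, the number called higher was 0 without HET IL-6 1, HET control 1, HET control 2 or WT IL-6 2 and 2 without WT control 2. For the endoplasmic reticulum chaperones list, the number called lower was 0 without HET IL-6 1, HET IL-6 2 or HET control 1 and 5 without WT control 2.

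Sterol synthesis was the list with the largest share of called members. The pathway makes cholesterol from acetyl-CoA and is switched on by the transcription factor SREBP2 when cell cholesterol is low. In WT 19 of 20 enzymes fell and in HET 3 rose, and 19 were called higher in the difference. The median response was -1.02 in WT and 0.21 in HET, and the median difference of all tested genes was 0.017. By class 16 of them responded in WT only and 3, among them Pmvk and Tm7sf2, were opposite. Cyp51 (chromosome 5, 4081145 to 4104746), the lanosterol demethylase, stood at 153 and 150 CPM in untreated WT libraries, 74.9 and 70.5 after IL-6, 91.5 and 106 in untreated HET libraries and 112 and 118 after IL-6. WT IL-6 was the lowest group, and both HET groups lay between the WT groups. Its response was -1.06 ± 0.09 in WT and 0.23 ± 0.09 in HET (difference 1.28 ± 0.12, edgeR adjusted p = 9.77e-05). Sc5d, which acts late in the pathway, had 89.5 and 80.7 CPM in untreated WT libraries, 39.7 and 37.9 after IL-6, 51 and 59.5 in untreated HET libraries and 64 and 63.2 after IL-6, with the same order of groups. Mvk, mevalonate kinase, fell by 1.35 ± 0.12 in WT and had a response of 0.10 ± 0.11 in HET (edgeR adjusted p of the difference 0.00024). The call counts of the list were 18 or 19 with any 1 library left out.

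Hmgcs1 is shown because it was the 1 of 15 sterol synthesis genes with an entry whose 250 bases before the start held the sterol regulatory motif TCACNCCAC on either strand. The motif occurred in 1.26% of tested genes with an entry. The window lies at chr13:119690194-119690242 (plus strand, Hmgcs1), from RefSeq (GRCm38.p6), with the match in capitals.
Hmgcs1: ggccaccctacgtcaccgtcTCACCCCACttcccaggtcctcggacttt
Hmgcs1 makes an early intermediate of the pathway. It stood at 133 and 131 CPM in untreated WT libraries, 78 and 80.5 after IL-6, 84.1 and 97.9 in untreated HET libraries and 107 and 109.7 after IL-6, with WT control highest and WT IL-6 lowest, and its difference was 0.99 ± 0.12 (edgeR adjusted p = 0.000346). It was named for its promoter, and 12.1% of its exons overlap another gene, so its level is uncertain. No match in the other 14 windows says only that these letters are not there.

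Among regulators and uptake genes of the sterol system, Insig1, which holds back SREBP processing, stood at 328 and 306 CPM in untreated WT libraries, 139.9 and 158 after IL-6, 203 and 249 in untreated HET libraries and 243 and 244 after IL-6. WT IL-6 was the lowest group, and its difference was 1.20 ± 0.14 (edgeR adjusted p = 0.000305). Srebf2, which encodes SREBP2, fell by 0.58 ± 0.09 in WT and had a response of 0.04 ± 0.08 in HET (difference edgeR adjusted p = 0.00702). The call for Srebf2 was lost without HET control 1 or HET IL-6 2. Of 11 tested members of this list, 5 were called higher and none lower. For the SREBP2 control and LDL uptake list, the number called higher was 3 without HET IL-6 2 or HET control 1.

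Fatty acid synthesis had 11 of 14 tested members called higher and none lower, 6 of them opposite and 5 in WT only. Its median response was -0.71 in WT and 0.31 in HET. Scd2 (chromosome 19, 44293674 to 44306864), a desaturase that makes monounsaturated fatty acids, stood at 679 and 471 CPM in untreated WT libraries, 116 and 154 after IL-6, 194 and 256 in untreated HET libraries and 657 and 532 after IL-6. WT control and HET IL-6 overlapped, as 2 high groups, and WT IL-6 and HET control did not reach them. Its response was -2.09 ± 0.24 in WT and 1.40 ± 0.24 in HET, a difference of 3.49 ± 0.34 (edgeR adjusted p = 0.002). Scd1, its relative, had 68.4 and 36.2 CPM in untreated WT libraries, 5.71 and 7.83 after IL-6, 10.6 and 12.7 in untreated HET libraries and 52.9 and 32.6 after IL-6, and at 4.83 ± 0.63 (edgeR adjusted p = 0.0154) its difference was the highest among named genes. The call for Scd1 was lost without WT IL-6 1, WT IL-6 2, HET control 1 or HET control 2. Fasn, the fatty acid synthase, stood at 299 and 241 CPM in untreated WT libraries, 146 and 169.7 after IL-6, 227 and 253 in untreated HET libraries and 355 and 358 after IL-6, and no IL-6 library overlapped a control library within a genotype. Srebf1, which encodes the factor that drives these enzymes, differed by 1.22 ± 0.14 (edgeR adjusted p = 0.00024). Acss2, which makes acetyl-CoA from acetate, and Fads2, a polyunsaturated fatty acid desaturase, fell by 2.29 ± 0.19 and 1.82 ± 0.14 in WT, with differences of 2.60 ± 0.26 and 2.10 ± 0.20 (edgeR adjusted p = 0.000112 and 0.000131). The number called was 8 to 12 with any 1 library left out.

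Of 12 tested genes of the list of the oxysterol receptor LXR and cholesterol efflux, 5 were called higher and none lower. The list also holds genes that do not export cholesterol, such as Nr1h2, which encodes a form of LXR. Abca1, which loads cholesterol onto apolipoprotein, stood at 491 and 488 CPM in untreated WT libraries, 229.6 and 311 after IL-6, 268 and 347 in untreated HET libraries and 439 and 449 after IL-6. Both IL-6 libraries lay below the controls in WT and above them in HET, a difference of 1.39 ± 0.19 (edgeR adjusted p = 0.00102). Abcg1, which exports cholesterol to high-density lipoprotein, differed by 1.74 ± 0.24 (edgeR adjusted p = 0.00227). The call for Abca1 was lost without WT control 1. The call for Abcg1 was lost without WT control 1. For the LXR and cholesterol efflux list, the number called higher was 3 without HET IL-6 2 or WT control 1. Of lipid uptake and storage genes 3 of 15 were called higher and 1 lower, against 4.52% and 3.6% of all tested genes. For the lipid uptake and storage list, the number called higher was 1 without HET IL-6 1, HET IL-6 2 or HET control 1 and 5 without WT control 2. For the lipid uptake and storage list, the number called lower was 0 without HET IL-6 1, HET IL-6 2, HET control 1, HET control 2 or WT IL-6 1, 2 without WT control 2 and 3 without WT IL-6 2. Scarb1, a receptor for high-density lipoprotein, fell by 0.70 ± 0.10 in WT and had a response of 0.09 ± 0.10 in HET (edgeR adjusted p of the difference 0.0044). Soat2, which esterifies cholesterol, rose in both genotypes by different amounts, 0.66 ± 0.20 in WT and 2.62 ± 0.20 in HET (edgeR adjusted p of the difference 0.0012).

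**Figure D2:**
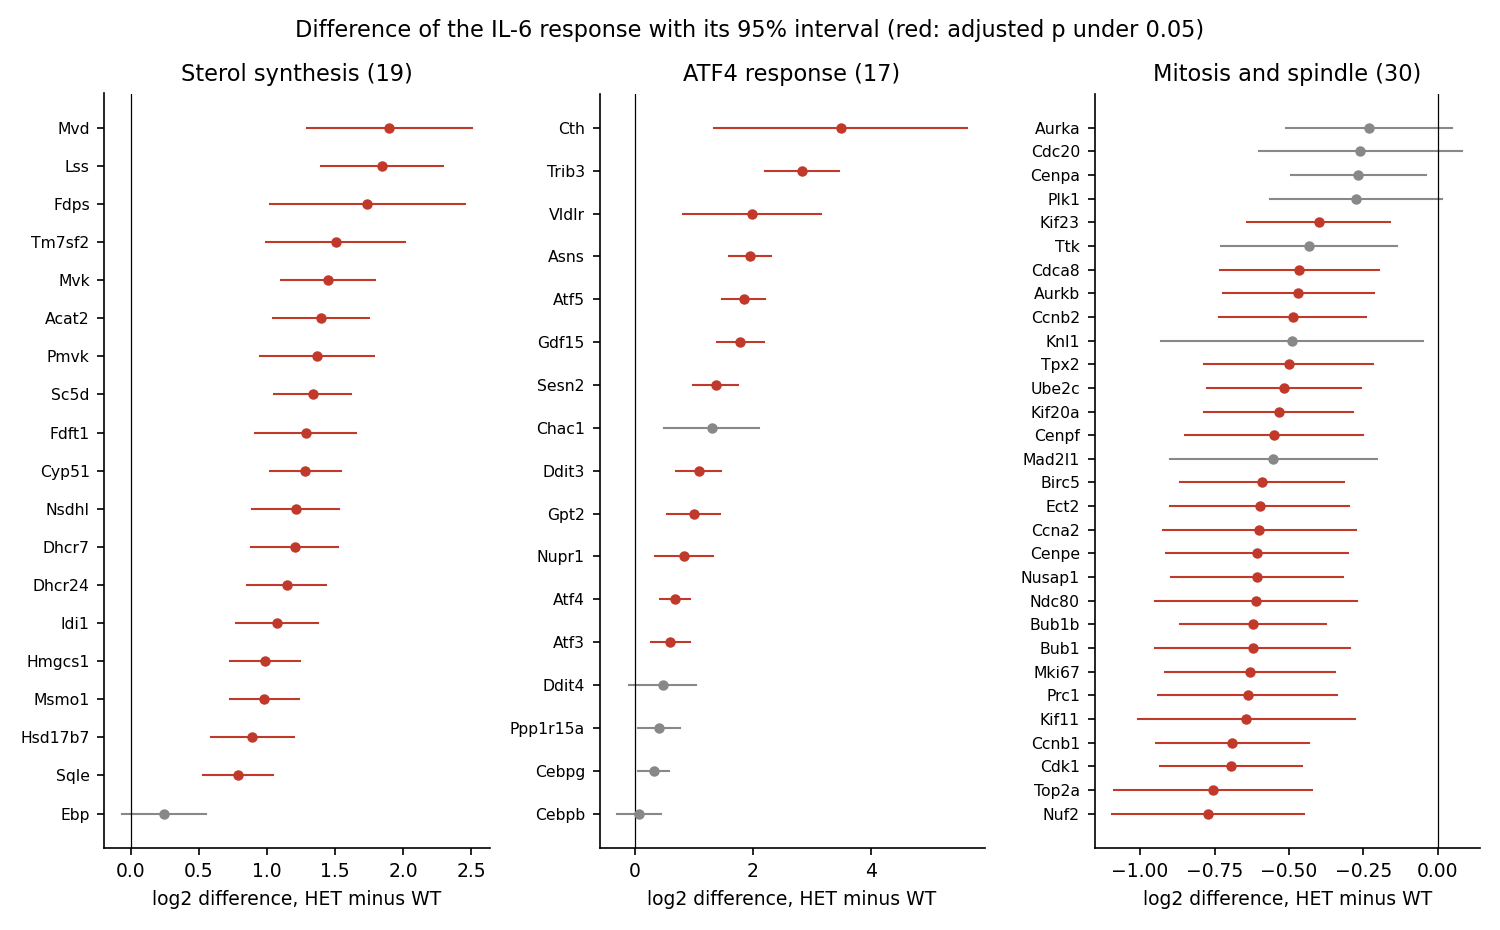
Points are the log2 difference of the response, HET minus WT, of tested members of 3 gene lists (19 of 20 sterol synthesis genes, all of the ATF4 and mitosis lists), and lines are its 95% interval. Sterol synthesis and ATF4-list members lie to the right of 0 and mitosis members to the left, with called genes in red.

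Many cell cycle genes fell in HET and few changed in WT. These genes copy DNA and separate chromosomes, and their messages are held mainly by dividing cells, so in such bulk samples fewer dividing cells and less RNA per cell cannot be told apart. Of 30 mitosis and spindle genes 25 fell in HET and 1 in WT, and 23 were called lower in the difference, 21 of them in HET only. The median response was 0.13 in WT and -0.47 in HET. Cdk1 (chromosome 10, 69335146 to 69352938), the kinase that starts mitosis, stood at 108 and 108 CPM in untreated WT libraries, 129 and 124 after IL-6, 135 and 127 in untreated HET libraries and 98.1 and 90.9 after IL-6. Within WT the IL-6 libraries were the higher ones, and within HET the lower ones. Its response was 0.22 ± 0.08 in WT and -0.47 ± 0.08 in HET (difference -0.69 ± 0.11, edgeR adjusted p = 0.00209). Ccnb1, its cyclin partner, had 99.7 and 109.9 CPM in untreated WT libraries, 131 and 119.6 after IL-6, 127 and 116 in untreated HET libraries and 90.2 and 89.8 after IL-6, and its difference was -0.69 ± 0.12 (edgeR adjusted p = 0.00378). For the mitosis and spindle list, the number called lower was 2 without HET control 1, 7 without HET IL-6 1, 8 without HET IL-6 2, 11 without WT IL-6 1 and 14 without HET control 2. The median difference of the list stayed between -0.74 and -0.40 over all alternatives.

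Of 30 DNA replication genes 18 fell in HET and 5 rose in WT, and 18 were called lower and none higher in the difference, 14 of them in HET only, with a median difference of -0.54. Mcm10, which helps to load the replication machinery, stood at 56.4 and 50.8 CPM in untreated WT libraries, 57.7 and 58.1 after IL-6, 71.2 and 68.9 in untreated HET libraries and 46.7 and 44.8 after IL-6. Both HET IL-6 libraries were below every other library. Rrm1, a subunit of the enzyme that makes deoxynucleotides, fell by 0.48 ± 0.09 in HET and had a response of 0.26 ± 0.09 in WT (edgeR adjusted p of the difference 0.00491). For the DNA replication and S phase list, the number called lower was 4 without HET control 1, 7 without HET IL-6 2 and 10 without HET IL-6 1. Promoter windows of 2 mitosis genes are shown, since 9 of 26 members with an entry (34.6%) held the motif TTTGAA of the cell cycle homology region on either strand, against 13.0% of tested genes with an entry. The match nearest to the gene start is in capitals, and the windows (RefSeq, GRCm38.p6) lie at chr10:69352913-69352947 (minus strand, Cdk1) and chr7:135716452-135716497 (minus strand, Mki67). The Cdk1 match lies just inside the gene's span in the deposited table, before the RefSeq start.
Cdk1: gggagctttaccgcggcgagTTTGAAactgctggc
Mki67: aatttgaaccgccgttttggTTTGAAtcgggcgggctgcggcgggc
Mki67 is a proliferation marker, named here for its promoter. Its response was 0.13 ± 0.09 in WT and -0.50 ± 0.09 in HET (edgeR adjusted p of the difference 0.011). The call for Mki67 was lost without HET control 1 or HET IL-6 1. The E2F motif TTGGCGC occurred before 25 of 327 HET-only genes with an entry (7.65%), 12 of 331 WT-only genes (3.63%) and 3.99% of all tested genes with an entry.

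**Figure D3:**
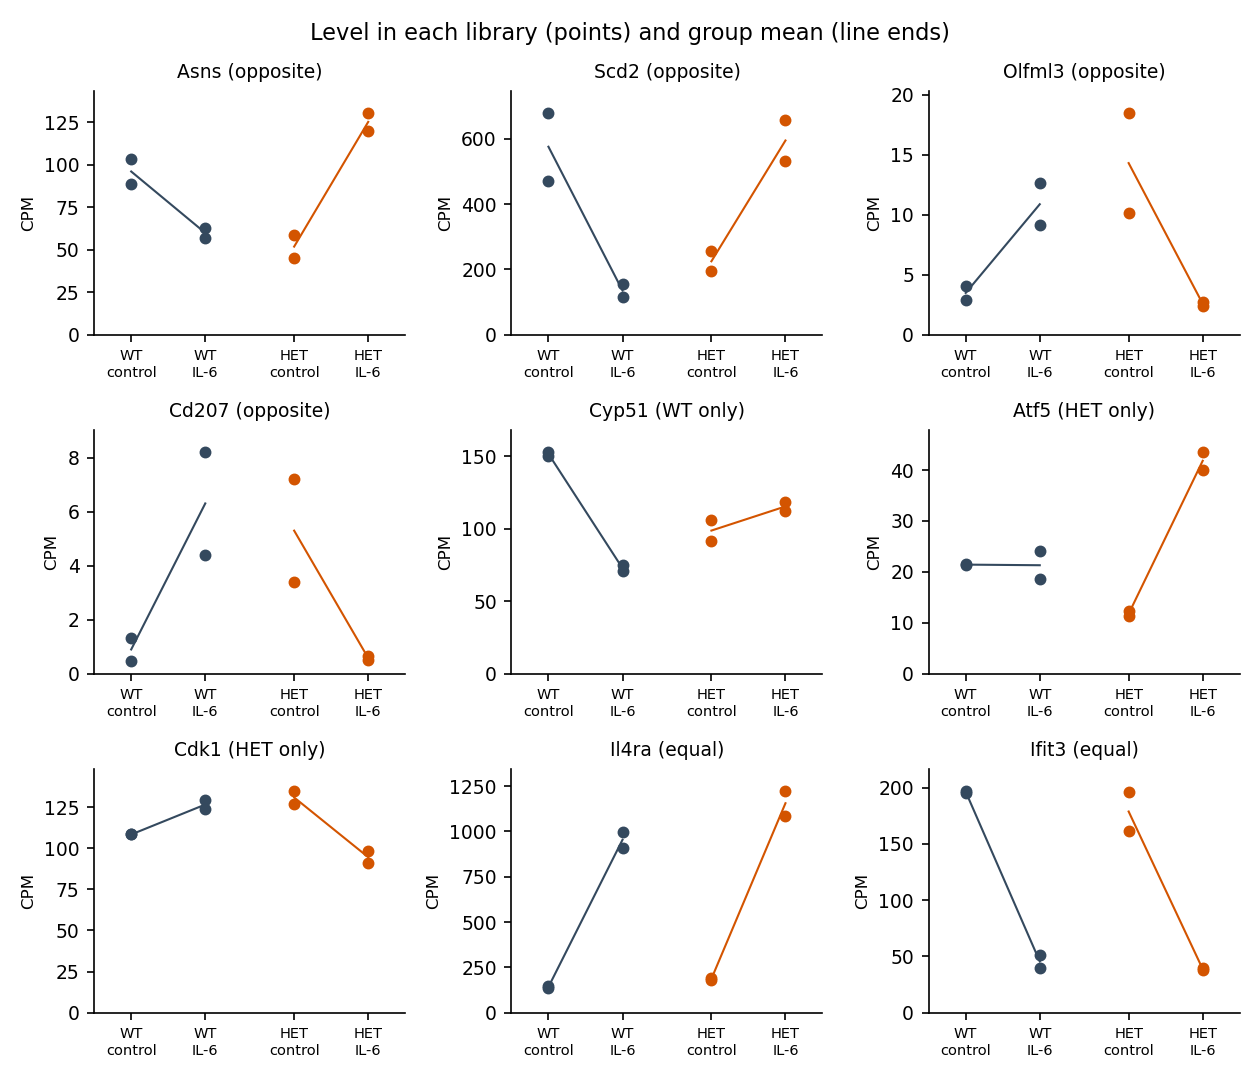
Level in CPM of 9 genes, with 1 point per library and lines joining group means, control to IL-6, within WT (dark) and HET (orange). Asns and Scd2 cross downward in WT and upward in HET, Olfml3 and Cd207 the reverse, and Il4ra and Ifit3 move alike in both.

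The 36 genes that rose in WT and fell in HET included genes of surface and secreted proteins. Cd207 (chromosome 6, 83671215 to 83677857), the langerin lectin of dendritic cells and some macrophages, had the lowest difference among named genes, -5.96 ± 0.71 (edgeR adjusted p = 0.00103), on low counts. It measured 0.478 and 1.32 CPM in untreated WT libraries, 8.23 and 4.39 after IL-6, 7.22 and 3.39 in untreated HET libraries and 0.497 and 0.668 after IL-6. WT IL-6 and HET control were the high groups and overlapped each other, and no IL-6 library overlapped a control library within a genotype. Olfml3, a secreted glycoprotein, stood at 2.87 and 4.1 CPM in untreated WT libraries, 12.7 and 9.11 after IL-6, 18.5 and 10.1 in untreated HET libraries and 2.74 and 2.43 after IL-6, with a difference of -4.14 ± 0.41 (edgeR adjusted p = 0.000318). Cd34, a surface sialomucin of progenitor cells, differed by -2.63 ± 0.30 (edgeR adjusted p = 0.000621). Smad6, an inhibitor of BMP signalling, differed by -2.06 ± 0.30 (edgeR adjusted p = 0.00111). Of the 10 dendritic cell markers 9 were under 1 CPM in every library. The tenth, Bst2, which is also on the type I interferon list, carried the sum of 335 to 367 CPM in WT control libraries, 194 to 202 in those with IL-6, 322 to 377 in HET control libraries and 246 to 262 in those with IL-6. The part of dendritic cells in these differences was not tested. Of 15 tested monocyte genes 4 were called lower and none higher, against 3.6% and 4.52% of all tested genes. Their median responses were 0.63 in WT and -0.41 in HET. For the monocyte genes list, the number called lower was 1 without HET control 1 and 2 without HET IL-6 2, HET control 2, WT IL-6 1 or WT control 2. Cd300e, an activating receptor of monocytes, fell by 1.27 ± 0.16 in WT and 2.82 ± 0.17 in HET (edgeR adjusted p of the difference 0.00175).

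Itgal, the alpha chain of the integrin LFA-1, was opposite at -3.30 ± 0.38 (edgeR adjusted p = 0.00412), and Cx3cr1, the fractalkine receptor, fell by 2.55 ± 0.31 in HET with a difference of -3.05 ± 0.43 (edgeR adjusted p = 0.0154). Cx3cr1 measured 50.7 and 76.2 CPM in untreated WT libraries, 99.3 and 79 after IL-6, 195 and 124 in untreated HET libraries and 30.1 and 24.9 after IL-6. HET control held the 2 highest libraries and HET IL-6 the 2 lowest. The call for Itgal was lost without WT IL-6 1. The call for Cx3cr1 was lost without WT control 1, WT IL-6 1, WT IL-6 2 or HET IL-6 2, and also without the count filter. Collagen IV of basement membranes fell in HET only. Col4a1 (chromosome 8, 11198423 to 11312826) stood at 16.4 and 22.2 CPM in untreated WT libraries, 21 and 17 after IL-6, 54.5 and 49.1 in untreated HET libraries and 11.8 and 12.2 after IL-6, and its neighbour Col4a2 at 31 and 42.3 CPM in untreated WT libraries, 36.7 and 30.9 after IL-6, 88.2 and 82 in untreated HET libraries and 23.8 and 24.8 after IL-6. Both differed in the same direction, by -2.09 ± 0.20 and -1.69 ± 0.18 (edgeR adjusted p = 9.13e-05 and 0.000172), with HET control above the other 3 groups. Summed stromal and fibroblast markers were 3.55 to 9.05 CPM in WT control libraries and 5.36 to 11.4 in those with IL-6. The sum was 0.879 to 2.45 CPM in HET control libraries and 2.78 to 6.05 in those with IL-6. Flt1, a receptor for VEGF, fell by 2.37 ± 0.19 in HET and had a response of 0.08 ± 0.18 in WT (edgeR adjusted p of the difference 0.000172). Summed endothelial markers were 28.0 to 35.2 CPM in both control groups and 52.3 to 56.1 CPM in both IL-6 groups. Kdr carried this sum, with 25.2 to 33.1 CPM in control and 48.7 to 53.1 CPM in IL-6 libraries. Cdh5 was low, at 0.876 and 1.32 CPM in untreated WT libraries and 2.07 and 2.3 after IL-6. In HET it stood at 1.97 and 2.01 CPM untreated and 1.49 and 1.78 after IL-6. Pecam1 lay between 0.437 and 1.28 CPM, Esam reached at most 0.359 and Tek at most 0.221, and Emcn was at 0 in all. The part of these cells in the differences was not tested. Of 24 tested matrix remodelling genes 2 were called higher and 8 lower, against 4.52% and 3.6% of all tested genes. For the matrix remodelling list, the number called higher was 1 without HET IL-6 1, HET control 1, WT IL-6 1, WT IL-6 2 or WT control 1. For the matrix remodelling list, the number called lower was 4 without HET IL-6 1.

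Genes that responded in HET only and rose included Aqp9, a channel for water and glycerol. It stood at 8.88 and 7.99 CPM in untreated WT libraries, 10.6 and 10.9 after IL-6, 6.12 and 5.48 in untreated HET libraries and 33.7 and 25.5 after IL-6, and both HET IL-6 libraries were above every other library. The difference was 1.99 ± 0.21 (edgeR adjusted p = 0.000172). Ccl6, a chemokine of myeloid cells, rose by 0.95 ± 0.09 in HET (difference 1.09 ± 0.13, edgeR adjusted p = 0.000344), and Aoah, which inactivates lipopolysaccharide, by 0.99 ± 0.11 (difference 1.23 ± 0.15, edgeR adjusted p = 0.000344). Il6 itself, the gene of the added cytokine, was low and measured 1.47 and 1.15 CPM in untreated WT libraries, 0.62 and 0.697 after IL-6, 0.613 and 0.627 in untreated HET libraries and 4.81 and 2.31 after IL-6. It rose in HET with a difference of 3.47 ± 0.58 (edgeR adjusted p = 0.00271), a call that limma voom with group quality weights did not make. Il1b, encoding a pyrogenic cytokine, responded in WT only: it rose by 1.18 ± 0.18 in WT and had a response of 0.02 ± 0.17 in HET (edgeR adjusted p of the difference 0.0232). The call for Il1b was lost without WT control 1, WT control 2, WT IL-6 1, WT IL-6 2, HET IL-6 1 or HET IL-6 2, and also under limma voom and with GC and length offsets.

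Chemokines were divided: 6 of 18 were called higher and 3 lower, against 4.52% and 3.6% of all tested genes. Cxcl10, a T cell attractant, fell in both genotypes and further in HET, -0.78 ± 0.10 in WT and -1.72 ± 0.10 in HET (edgeR adjusted p of the difference 0.00102). Ccl7, a monocyte attractant, rose in both and further in HET, with a difference of 0.68 ± 0.11 (edgeR adjusted p = 0.00257). Cxcl14 was opposite at -1.68 ± 0.23 (edgeR adjusted p = 0.000784). For the chemokines list, the number called higher was 2 without HET IL-6 1 or HET control 1. Genes of alternative activation had 4 of 15 called higher and 2 lower, beside the same 4.52% and 3.6% over all tested genes. For the alternative activation list, the number called higher was 2 without HET IL-6 2, HET control 1 or WT IL-6 1. For the alternative activation list, the number called lower was 1 without HET IL-6 2, HET control 1, HET control 2, WT IL-6 1, WT control 1 or WT control 2. Mrc1, the mannose receptor, rose in both genotypes and further in HET, with a difference of 0.57 ± 0.11 (edgeR adjusted p = 0.00796). The call for Mrc1 was lost without HET control 1 or HET IL-6 2. Klf4, a transcription factor of this state, was opposite at 1.11 ± 0.16 (edgeR adjusted p = 0.00094), and Tgm2, a transglutaminase marker of it, was opposite in the other direction at -0.62 ± 0.11 (edgeR adjusted p = 0.00336). With 21.8% of its exons overlapping another gene, the level of Tgm2 is uncertain.

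WT-only genes outside lipid metabolism included transcription factors and immediate early genes. Of 25 EGR and AP-1 genes 17 fell in WT and 7 in HET, and 8 were called higher in the difference and 1 lower. Jun, a subunit of AP-1, fell by 1.04 ± 0.10 in WT and had a response of 0.08 ± 0.10 in HET (difference 1.12 ± 0.14, edgeR adjusted p = 0.000414). Ier3 fell by 0.87 ± 0.12 in WT and differed by 1.18 ± 0.17 (edgeR adjusted p = 0.00117). For the EGR and AP-1 immediate early genes list, the number called higher was 3 without HET control 1 or WT IL-6 1, 4 without WT IL-6 2 and 5 without HET IL-6 1 or WT control 1. For the EGR and AP-1 immediate early genes list, the number called lower was 2 without WT IL-6 1 or WT control 2 and 3 without WT control 1. Lyl1, a transcription factor of blood progenitors, stood at 52.9 and 47 CPM in untreated WT libraries, 20.6 and 19.2 after IL-6, 39.2 and 46.6 in untreated HET libraries and 47.3 and 47.5 after IL-6, so that WT IL-6 was below every other library. Its difference was 1.47 ± 0.14 (edgeR adjusted p = 0.000112), and 11.3% of its exons overlap another gene, so its level is uncertain. Kit, the stem cell factor receptor, fell by 2.12 ± 0.30 in WT and differed by 2.24 ± 0.41 (edgeR adjusted p = 0.00498). Trem1, a receptor that amplifies inflammation in myeloid cells, rose by 2.24 ± 0.23 in WT and differed by -1.82 ± 0.32 (edgeR adjusted p = 0.00388). Summed neutrophil markers were 2.91 to 4.02 CPM in WT control libraries, 11.4 to 13.0 in those with IL-6, 5.15 to 6.34 in HET control libraries and 6.48 to 7.63 in those with IL-6, with Mmp8 the most abundant, while the granule genes Elane and Mpo were at or near 0 in every library. Their part in the difference of Trem1 was not tested.

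Ighm, the heavy chain of IgM, fell in both genotypes and by less in HET. It stood at 60.3 and 40.4 CPM in untreated WT libraries, 3.1 and 5.74 after IL-6, 31.1 and 30.1 in untreated HET libraries and 12.2 and 12.2 after IL-6, the lowest group being WT IL-6. Its response was -3.55 ± 0.25 in WT and -1.32 ± 0.21 in HET (edgeR adjusted p of the difference 0.00333). The 9 B cell markers, of which Ighm is the most abundant and 2 were at 0 in every library, summed to 41.9 to 61.5 CPM in WT control libraries, 4.42 to 6.81 in those with IL-6, 31.5 to 32.3 in HET control libraries and 13.0 to 13.5 in those with IL-6. Pax5 and Vpreb3, which define the lineage, were the markers at 0. Among other genes with a shared direction, Kif3a, a motor protein subunit, rose more in HET, with 83.8 and 65.1 CPM in untreated WT libraries, 124 and 142 after IL-6, 40.5 and 46.6 in untreated HET libraries and 207 and 203 after IL-6. Glrx, a glutaredoxin, rose more in WT, by 1.43 ± 0.10 against 0.32 ± 0.10 in HET (edgeR adjusted p of the difference 0.000404). Tox2, a nuclear protein of lymphoid and myeloid cells, fell more in WT, -2.57 ± 0.11 against -1.61 ± 0.10 in HET (edgeR adjusted p of the difference 0.00129).

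Of 26 tested genes of the IL-6 receptor and STAT3 pathway, 6 responded equally, 1 was called in the difference, 8 were not resolved and 11 had no called response. Over all tested genes 4.16% responded equally and 8.12% were called in the difference. Il4ra (chromosome 7, 125552120 to 125579474), the IL-4 receptor chain, stood at 146 and 139 CPM in untreated WT libraries, 911 and 998 after IL-6, 181 and 193 in untreated HET libraries and 1086 and 1225 after IL-6. Both IL-6 groups were far above both control groups. Its response was 2.74 ± 0.09 in WT and 2.63 ± 0.09 in HET, and the 95% interval of the difference ran from -0.38 to 0.15. Stat3, the transcription factor downstream of the receptor, rose by 0.51 ± 0.08 in WT and 0.62 ± 0.08 in HET (interval of the difference -0.13 to 0.36), and Il6ra, the ligand-binding chain, fell by 0.37 ± 0.08 and 0.48 ± 0.08 (interval -0.33 to 0.13). Il6st, encoding gp130, was the member called in the difference, at 0.38 ± 0.11 (edgeR adjusted p = 0.045). The call for Il6st was lost without WT control 1, WT IL-6 1, WT IL-6 2, HET control 1, HET control 2, HET IL-6 1 or HET IL-6 2, and also with DESeq2 size factors. Socs3, the feedback inhibitor of STAT3, passed in neither genotype, with -0.01 ± 0.09 in WT and 0.14 ± 0.09 in HET. Bcl3, a nuclear NF-kB cofactor, rose by 0.71 ± 0.19 and 0.55 ± 0.17, and its interval, -0.72 to 0.40, was too wide to call the responses equal.

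Interferon-stimulated genes fell in both genotypes. All 31 tested members of the type I list fell in WT and 29 fell in HET, with median responses of -0.98 and -0.84. By class 16 were equal, 4 differed in size, 1 (Stat2) responded in WT only and 10 were not resolved. Without HET control 1, HET IL-6 1 or HET IL-6 2 the call for Stat2 was lost. Ifit3 (chromosome 19, 34583531 to 34588731), which binds viral RNA, stood at 196 and 197 CPM in untreated WT libraries, 51.6 and 39.6 after IL-6, 162 and 196 in untreated HET libraries and 39.5 and 38.1 after IL-6. The 2 control groups overlapped, and every IL-6 library was below every control library. Its response was -2.10 ± 0.12 in WT and -2.20 ± 0.12 in HET (interval of the difference -0.45 to 0.25). Without WT IL-6 2 or HET control 1 the interval passed the bound for an equal response. Where a difference was called, the fall was smaller in HET: Irf7, the factor that amplifies interferon, fell by 1.59 ± 0.11 in WT and 1.03 ± 0.11 in HET (edgeR adjusted p of the difference 0.0409). The call for Irf7 was lost without WT control 1, WT IL-6 2, HET control 1, HET IL-6 1 or HET IL-6 2, and also with a minimum count of 50, under limma voom and with GC and length offsets. For the type I interferon-stimulated genes list, the number called higher was 0 without HET IL-6 1 or HET control 1, 1 without WT control 1, 2 without HET IL-6 2 and 3 without WT IL-6 1 or WT IL-6 2. Of 14 guanylate-binding and immunity-related GTPases, which attack vacuoles of pathogens, 13 fell in WT and 14 in HET, 5 were equal, and 1 was called higher and 1 lower. For the guanylate-binding and immunity-related GTPases list, the number called higher was 0 without HET IL-6 1, HET control 1, HET control 2, WT IL-6 1 or WT IL-6 2. For the guanylate-binding and immunity-related GTPases list, the number called lower was 0 without HET IL-6 1, HET control 1, HET control 2 or WT control 1 and 3 without WT control 2.

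Promoter windows of 4 interferon-regulated genes are shown because their families moved together. The interferon response motif GAAANNGAA on either strand occurred in 12 of 22 type I genes with an entry (54.5%) and in 8 of 8 GTPases, against 7.73% of tested genes with an entry. It occurred before 54 of 456 equal genes (11.8%), 13 of 78 genes of shared direction and different size (16.7%), 7 of 86 opposite genes (8.14%), 26 of 331 WT-only genes (7.85%) and 23 of 327 HET-only genes (7.03%). The windows (RefSeq, GRCm38.p6) lie at chr19:34583407-34583455 (plus strand, Ifit3), chr5:120777700-120777748 (minus strand, Oas3), chr11:58199502-58199550 (plus strand, Igtp) and chr11:48871421-48871464 (minus strand, Irgm1), with the match nearest to the gene start in capitals.
Ifit3: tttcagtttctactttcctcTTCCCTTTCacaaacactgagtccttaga
Oas3: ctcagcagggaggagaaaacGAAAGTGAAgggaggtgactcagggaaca
Igtp: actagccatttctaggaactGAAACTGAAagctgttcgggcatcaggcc
Irgm1: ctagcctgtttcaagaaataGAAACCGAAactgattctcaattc
Oas3, an RNA-sensing synthetase, and the GTPases Igtp and Irgm1 are named for their promoters. All 3 were equal: Oas3 fell by 1.26 ± 0.08 in WT and 1.13 ± 0.08 in HET, Igtp by 0.91 ± 0.10 and 0.91 ± 0.10, and Irgm1 by 0.97 ± 0.09 and 0.82 ± 0.09.

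Antigen presentation by MHC class I, which interferon also drives, had fewer falls in HET. Of 20 tested genes 17 fell in WT and 9 in HET, and 8 were called higher in the difference, 6 of them in WT only, while 6 were equal. H2-K1, a class I heavy chain, stood at 1426 and 1267 CPM in untreated WT libraries, 769 and 852 after IL-6, 1198 and 1404 in untreated HET libraries and 1211 and 1206 after IL-6. WT IL-6 lay below the other 3 groups. HET control overlapped both WT control and HET IL-6, and the HET IL-6 libraries lay below those of WT control. Its difference was 0.63 ± 0.14 (edgeR adjusted p = 0.0124). The call for H2-K1 was lost without HET control 1, HET IL-6 1 or HET IL-6 2. For the MHC class I and peptide loading list, the number called higher was 1 without HET IL-6 2, 2 without HET IL-6 1, HET control 1 or WT IL-6 1 and 3 without WT control 1. H2 heavy chain genes resemble each other closely, so the division of reads among them is uncertain.

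In edgeR, none of 25 oxidative phosphorylation genes was called in the difference, with 2 at an unadjusted p under 0.05 and 0 called by DESeq2 or limma voom. Of 36 ribosomal protein genes 1 was called (Rplp1, 0.74 ± 0.15, edgeR adjusted p = 0.00944). The call for Rplp1 was lost without HET control 1 or HET IL-6 2, and also with GC and length offsets. Of 18 glycolysis genes 12 rose in WT and 9 in HET, 7 were equal, 1 was called higher and 1 lower. Over all tested genes 7.91% rose in WT, 8.87% rose in HET, 4.16% were equal, 4.52% were called higher and 3.6% lower. For the glycolysis and glucose uptake list, the number called higher was 0 without HET IL-6 1, HET IL-6 2 or HET control 1. For the glycolysis and glucose uptake list, the number called lower was 0 without HET IL-6 1, HET IL-6 2, HET control 1, HET control 2, WT IL-6 1 or WT IL-6 2. None of 18 NF-kB subunits and inhibitors was called in edgeR, with 5 at an unadjusted p under 0.05, 1 called by DESeq2 and 0 by limma voom. Without WT control 2 or WT IL-6 1 edgeR called 2, and without WT IL-6 2 it called 1. Of 17 DNA methylation genes 1 was called, against 8.12% of all tested genes. It was Uhrf1, the partner of the maintenance methyltransferase, which was also on the replication list, at -0.56 ± 0.11 (edgeR adjusted p = 0.00749). The call for Uhrf1 was lost without HET control 1 or HET IL-6 2. Dnmt3a responded by -0.54 ± 0.25 in WT and -0.23 ± 0.25 in HET, with an interval of the difference from -0.53 to 1.15.

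**Figure D4:**
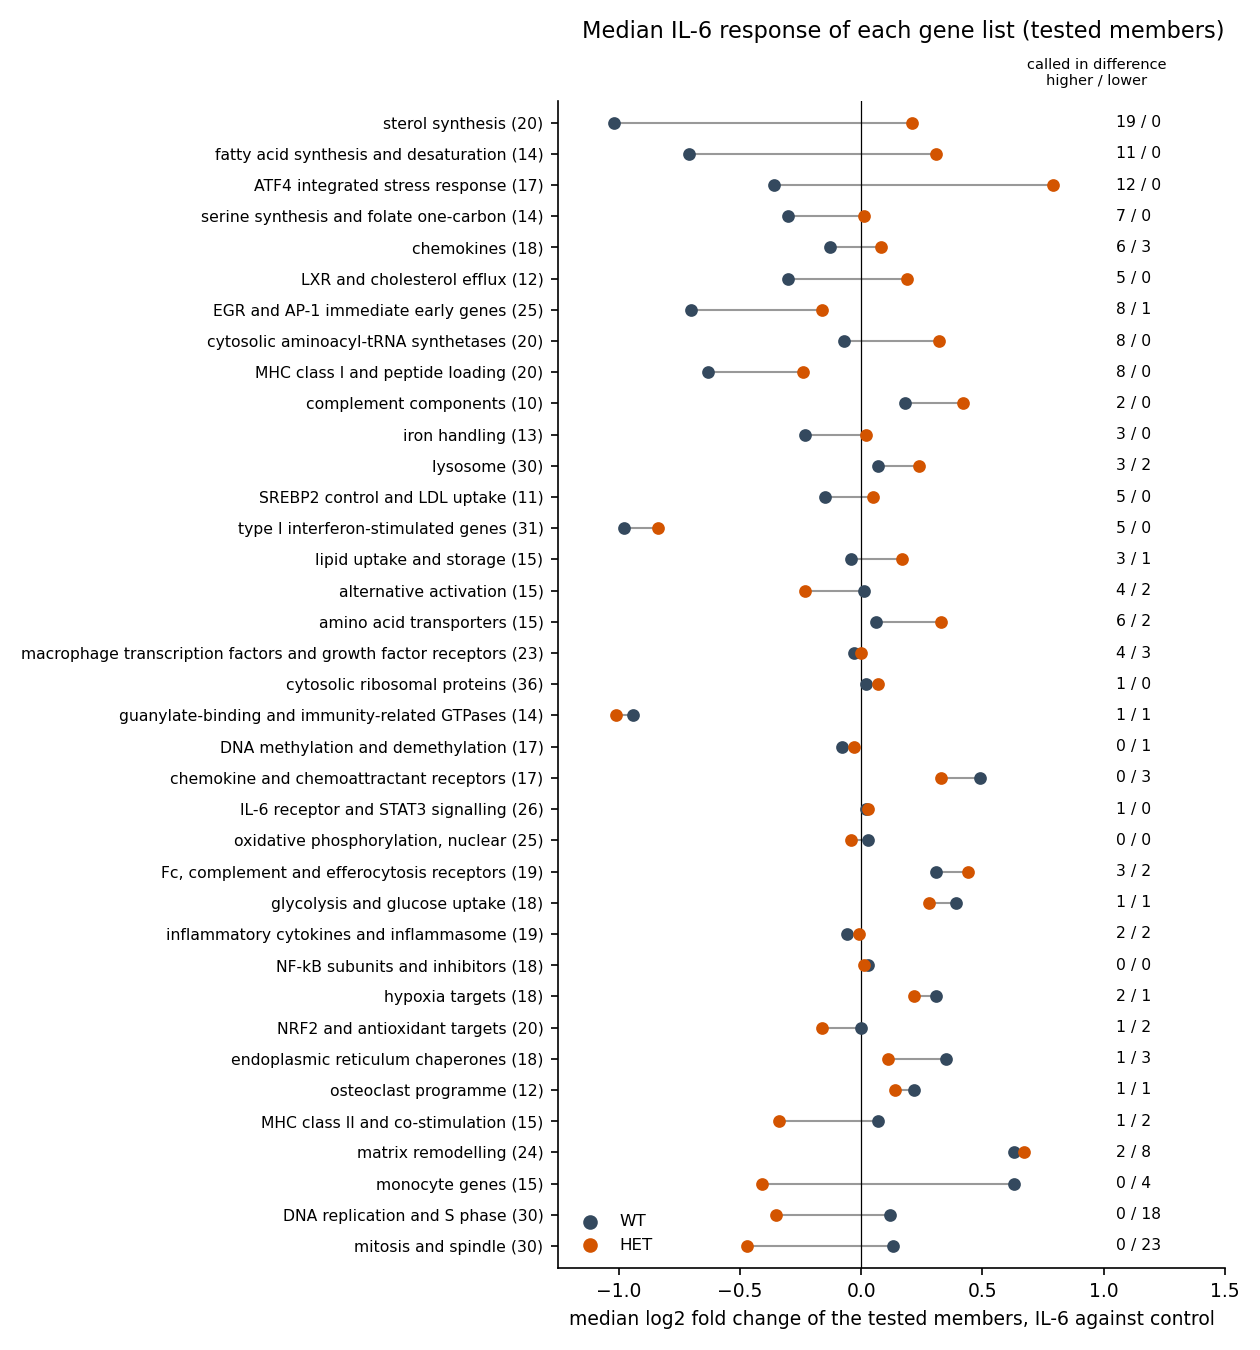
For each of the pathway lists, dots give the median log2 fold change of IL-6 against control over its tested members in WT (dark) and HET (orange), and the numbers at the right give members called higher and lower in the difference. Among these 37 pathway lists sterol synthesis has the widest gap, from -1.02 in WT to 0.21 in HET, and the 2 interferon-regulated lists lie far to the left in both genotypes.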

How the data were processed

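The 8 libraries were stranded polyA RNA-seq of bone-marrow-derived macrophages, 2 per group. Raw read counts per gene were deposited by the authors as 1 table. Per the submitters' processing notes, the tools were STAR 2.7.9a, featureCounts 1.6.2, fastp 0.12.4 and SAMtools 1.9, and the build was mm10. The sources used here do not state the annotation release or strand setting, so reads of overlapping genes may be shared. Of 26 symbols stored as dates, 25 were restored.

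Genes were kept by edgeR's filterByExpr (minimum count 10), scaled by TMM and tested with edgeR 4.0.16 (R 4.3.3) by the quasi-likelihood test on all 4 groups, with Benjamini-Hochberg adjustment over all tested genes and an adjusted p threshold of 0.05. The difference was the genotype by treatment contrast, with 4 residual degrees of freedom. CPM are TMM-scaled, and 3 counts correspond to 0.0598 to 0.159 CPM. Values after ± are standard errors. The procedure was also run on simulated counts in which only HET IL-6 was changed and each gene had the same spread in all groups. That run could not check the opposite, WT-only or equal classes, or an unequal spread between groups. Alternatives were DESeq2 1.42.0 and limma 3.58.1 (voom with group weights), other scalings, filters and thresholds, GC and length offsets, a replicate block, and libraries left out.

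The members and gene lists were chosen with earlier results of these data known. Genes named were fixed ones of the IL-6 pathway, the 15 highest and 15 lowest called differences, the 8 smallest p per class, the 10 largest equal rises and falls (each at 5 CPM or more in a group), and up to 5 members per list by p. Genes whose promoters are printed were added after their values were seen, and not every gene that met the rule is described. Some are not reported here.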

Additional observations from a re-analysis of the deposited data

Results flagged for a closer look

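The responses of the genotypes differed, by a test of the difference itself, for 1114 genes, of which 112 moved in opposite directions. For 7 opposite genes among those with the smallest p, the log2 difference (HET minus WT) was 1.95 for Asns, 4.11 for Aldh1l2, 1.35 for Shmt2, 2.13 for Slc1a4, 1.44 for Slc7a5, 1.58 for Cnrip1 and 1.34 for Fasn. With 2 libraries per group no group was large enough to look for a single library far from the others.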

How the results depend on the processing

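No called gene reversed its sign under an alternative in which it was tested, but counts of calls moved. With single libraries left out, the called differences ranged from 304 to 2123 (main 1114), the higher ones from 191 to 1174 (620), the lower ones from 113 to 949 (494), the WT responses from 1577 to 3073 (2515), the HET responses from 1203 to 3061 (2508), opposite genes from 38 to 259 (112), WT-only genes from 152 to 867 (414), HET-only genes from 78 to 639 (417), genes of shared direction from 25 to 161 (97) and equal genes from 264 to 601 (571). In the same order of results, with both HET libraries numbered 1 left out, calls were 188 differences, 124 higher, 64 lower, 697 HET responses, 25 opposite, 113 WT only, 31 HET only, 13 of shared direction and 142 equal. With both HET libraries numbered 2 left out they were 428, 266, 162, 835, 55, 198, 111, 34 and 92. With both WT libraries numbered 2 left out they were 3446 differences, 1680 higher, 1766 lower, 4201 WT and 3896 HET responses, 620 opposite, 1518 WT only, 804 HET only and 308 of shared direction. With both WT libraries numbered 1 left out there were 3905 HET responses and 889 equal genes. In these fits a group left with 1 library is assumed to vary like the others. GC and length offsets gave 1718 differences, 958 of them lower, 212 opposite, 686 HET only, 196 of shared direction and 977 equal. Limma voom gave 1660 WT and 4005 HET responses and 273 WT-only genes. At an adjusted p of 0.01 there were 354 differences (214 higher, 140 lower), 1413 WT and 1408 HET responses, 38 opposite, 136 WT only, 137 HET only, 28 of shared direction and 317 equal genes, and a narrower bound left 124 equal genes. The cause of these changes was not tested.

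Libraries share replicate numbers, but the labels do not say that a number marks a mouse. Deviations of same-numbered libraries correlated at -0.099 in WT and 0.144 in HET. Between groups of different genotypes the correlations ran from -0.06 to 0.028, so both values lay outside that range, in different directions. The main fit did not take the numbers as a pairing, and whether they mark one was not tested. A replicate block gave 506 differences (303 higher, 203 lower), 65 opposite, 197 WT only, 187 HET only, 43 of shared direction and 310 equal genes, and with GC and length offsets 750 lower and 147 of shared direction. Of genes named above, the block alone lost the calls of Atf3, H2-K1, Il6st, Irf7, Mki67, Mrc1, Nupr1, Stat2, Uhrf1 and Vldlr. The block with offsets lost those of Irf7, Nupr1 and Rplp1. Low counts limit genes such as Cd207 and Il6.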
